A study of Homo sapiens with 56 samples.

Results

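AP-1 is a dimeric transcription factor built from proteins of the FOS and JUN families, and ATF3 is a related stress-induced repressor and activator that can pair with JUN proteins. The genes examined were FOS, FOSB, FOSL1 and FOSL2 of the FOS family, JUN, JUNB and JUND of the JUN family, and ATF3. They were taken as every probe set to which the array annotation gives one of these symbols and no other. This found 15 of the 22215 probe sets tested and 8 of the 11963 genes. FOS, FOSB, FOSL1, JUNB and ATF3 each had 1 probe set, FOSL2 and JUND had 3 each, and JUN had 4. Where a gene is counted once it is represented by its brightest probe set, called its standing probe set, judged by the mean of the 56 arrays.

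The cells were PEO1 and PEO4, established lines from high-grade serous ovarian cancer, which carry estrogen receptor alpha. Each line contributed 28 arrays in 7 groups of 4, and every group had first spent 3 days without hormone, in stripped serum and medium without phenol red. The groups were 4OHT+E2 (4-hydroxytamoxifen at 1 µM with estradiol at 1 nM), 4OHT alone at 1 µM, ICI+E2 (fulvestrant at 1 µM with estradiol at 1 nM), ICI alone at 1 µM, E2 alone at 1 nM, vehicle (ethanol), each for 3 h, and cells taken at 0 h. 4OHT, which some labels abbreviate as Tam, is an active metabolite of tamoxifen and a selective modulator of the estrogen receptor, and fulvestrant, abbreviated ICI in the labels, is a steroidal antagonist that lowers the receptor's amount. The labels do not say that the 4 arrays of a group came from separate cultures, so p-values measure the spread between these arrays only.

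FOS, FOSB and ATF3 are immediate early genes, transcribed within minutes of a growth factor, stress or calcium signal and switched off again as their short-lived mRNAs decay. FOS family proteins bind DNA only as partners of JUN proteins, while JUN proteins can also pair with each other. Estrogen receptor alpha can act through AP-1 at sites where it does not touch DNA itself.

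Levels are log2 values, so a difference of 1 means 2 times the signal. Array medians ran from 7.40 to 7.48 in PEO1 but from 7.84 to 7.91 in PEO4, so no level was tested between lines or between probe sets. The 9 epithelial markers had median levels from 10.17 to 13.81 in both lines, while the medians of 4 leukocyte markers ran from 3.17 (PTPRC in PEO1) to 7.40 (CD3E in PEO4) and those of 3 endothelial markers from 4.09 to 6.96. Without detection calls, such levels do not show whether a gene was expressed. The 5 fibroblast markers other than THY1 had medians from 2.49 to 8.21, while THY1 was at 11.53 in PEO1 and 10.86 in PEO4. GREB1, a standard estrogen target, rose by 1.97 with E2 in PEO1 and by 1.69 in PEO4, and was 2.65 lower with 4OHT+E2 than with E2 in PEO1 and 1.82 lower in PEO4. The ACTB 3′ minus 5′ probe set difference, which grows as RNA degrades, ran from -0.25 to 0.14 on the PEO1 arrays. In PEO4 it reached 3.41 on ICI replicate 1, 2.28 on 0 h replicate 4 and 1.74 on 4OHT+E2 replicate 4, against 0.24 to 1.07 on the 25 other PEO4 arrays.

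In RefSeq, build GRCh38.p14, JUN spans chr1:58780791-58784047 and ATF3 chr1:212565407-212620777. FOSL2 spans chr2:28392858-28417317, FOSL1 chr11:65892049-65900545 and FOS chr14:75278828-75282230. JUNB (chr19:12791486-12793315), JUND (chr19:18279694-18281622) and FOSB (chr19:45467996-45475179) share chromosome 19.

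FOSB and FOS were called higher with 4OHT over vehicle in both lines, and JUND in PEO1 only. JUN was not called higher on its standing probe set. The upstream sequences shown were chosen by that outcome, and other windows, such as those of ATF3, called in both lines, are not shown. The sequences shown are the 250 bases before the gene's start in RefSeq, build GRCh38.p14, 5′ to 3′ in the direction of transcription. FOSB lies on the plus strand at chr19:45467746-45467995, FOS on the plus strand at chr14:75278578-75278827, JUND on the minus strand at chr19:18281623-18281872 and JUN on the minus strand at chr1:58784048-58784297. Capitals mark the cyclic AMP response element core TGACGT (its reverse complement on the other strand) and the TATA box TATAAA. In JUND the first core is part of the full 8-base element TGACGTCA.
FOSB: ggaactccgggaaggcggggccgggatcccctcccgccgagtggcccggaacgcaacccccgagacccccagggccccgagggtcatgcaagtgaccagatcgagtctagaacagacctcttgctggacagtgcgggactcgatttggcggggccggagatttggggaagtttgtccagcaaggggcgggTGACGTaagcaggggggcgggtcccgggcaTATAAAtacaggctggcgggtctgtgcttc
FOS: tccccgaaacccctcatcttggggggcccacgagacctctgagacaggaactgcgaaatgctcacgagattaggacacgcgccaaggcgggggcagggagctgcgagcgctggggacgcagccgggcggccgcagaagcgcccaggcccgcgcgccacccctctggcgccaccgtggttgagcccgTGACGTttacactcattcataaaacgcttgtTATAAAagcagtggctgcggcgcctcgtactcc
JUND: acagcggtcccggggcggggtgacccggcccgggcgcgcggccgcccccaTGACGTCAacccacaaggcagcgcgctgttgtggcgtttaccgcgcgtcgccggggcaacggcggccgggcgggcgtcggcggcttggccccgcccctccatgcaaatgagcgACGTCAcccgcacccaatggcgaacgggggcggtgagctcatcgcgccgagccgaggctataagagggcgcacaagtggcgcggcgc
JUN: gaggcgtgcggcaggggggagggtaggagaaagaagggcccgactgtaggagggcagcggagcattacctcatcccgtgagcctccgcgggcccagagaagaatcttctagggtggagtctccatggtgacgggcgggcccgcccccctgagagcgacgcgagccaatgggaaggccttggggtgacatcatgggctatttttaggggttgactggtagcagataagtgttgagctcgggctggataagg

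Both strands of each window were searched. The core began 60 bases before the start of FOSB, 64 before FOS, 66 before FOSL2 and 200 before JUND, where a further copy on the other strand began at 87. It was in 4 of the 8 windows of these genes and in 7.1% of all 35116 windows of this length in the table. FOSL2 has the core but was not called with 4OHT over vehicle. Neither window of ATF3, which was called in both lines, has it. The full element was in 1 of the 8, JUND, and in 1.65% of all. The TATA box letters TATAAA were in 4, those of FOSB, FOS, JUNB and 1 of the 2 ATF3 windows, and in 10.7% of all. They began 30 bases before the start for FOSB, 33 for FOS and 31 for JUNB, but 230 for ATF3. The AP-1 element TGANTCA, the CArG box and the palindromic estrogen response element were in 0 of the 8, and in 6.57%, 1.16% and 0.04% of all. Only these 250 bases were searched, so the absence of a match says nothing about sequence further upstream. The table matched 7 of the 8 genes, all but FOSL1. A match is a description of these letters and not a measured site.

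FOSB, which makes FosB and the shorter, long-lived delta FosB, had the largest rise of the 8 genes in each comparison of 4OHT or 4OHT+E2 with a group lacking it. In PEO1 its levels were 7.84, 8.44, 7.34 and 7.39 with 4OHT and 7.18, 7.32, 7.69 and 8.70 with 4OHT+E2, against 6.08, 6.12, 6.17 and 6.16 with vehicle and 6.09, 6.22, 6.14 and 6.14 with E2. In PEO4 they were 8.76, 8.98, 9.20 and 9.16 with 4OHT and 9.46, 9.06, 10.02 and 9.41 with 4OHT+E2, against 7.22, 7.0, 7.12 and 6.98 with vehicle and 7.03, 7.18, 7.14 and 7.11 with E2. In each line the 8 arrays with 4OHT lay above all 20 arrays without it, the lowest at 7.18 against a highest of 6.62 in PEO1, and 8.76 against 7.73 in PEO4. FOSB rose by 1.62 ± 0.22 (SE; 3.08-fold, adjusted p = 3.19e-05) with 4OHT over vehicle in PEO1 and by 1.94 ± 0.14 (3.84-fold, adjusted p = 1.76e-09) in PEO4. With estradiol present in both arms it rose by 1.57 ± 0.22 (2.98-fold, adjusted p = 1.37e-05) in PEO1 and by 2.38 ± 0.14 (5.19-fold, adjusted p = 8.33e-12) in PEO4. The spread within the PEO1 groups was wide, with means of 7.72 ± 0.69 with 4OHT+E2 and 7.75 ± 0.51 with 4OHT, against 6.13 ± 0.04 with vehicle (SD, n = 4 each). The RNA came from whole cultures, in which more RNA per cell and more cells that express a gene cannot be told apart. In PEO4 the ACTB 3′ minus 5′ value was 0.47 to 0.65 with 4OHT and 0.48 to 1.74 with 4OHT+E2, against 0.24 to 0.57 with vehicle and 0.68 to 1.02 with E2. Its part in the differences was not tested.

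With ICI at the same dose and time FOSB stayed below every 4OHT array in both lines. In PEO1 the ICI arrays read 6.27, 6.30, 6.38 and 6.15 and the ICI+E2 arrays 6.30, 6.30, 6.30 and 6.62. In PEO4 they read 7.73, 7.30, 7.18 and 7.15 with ICI and 7.54, 7.68, 7.47 and 7.47 with ICI+E2. FOSB was higher with 4OHT than with ICI by 1.48 ± 0.22 (adjusted p = 0.000141) in PEO1 and by 1.68 ± 0.14 (adjusted p = 2.1e-08) in PEO4. With estradiol added to both, 4OHT exceeded ICI by 1.34 ± 0.22 (adjusted p = 0.000589) in PEO1 and by 1.95 ± 0.14 (adjusted p = 7.98e-10) in PEO4. The PEO1 value with estradiol lost its call when only those 8 arrays were fitted (adjusted p = 0.0794). ICI itself differed from vehicle by 0.15 (95% interval -0.30 to 0.59) in PEO1 and by 0.26 (-0.03 to 0.55) in PEO4. ICI+E2 differed from E2 by 0.43 in PEO4 (adjusted p = 0.181, and 0.00423 with only those 8 arrays fitted), with no overlap between the groups.

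**Figure D1:**
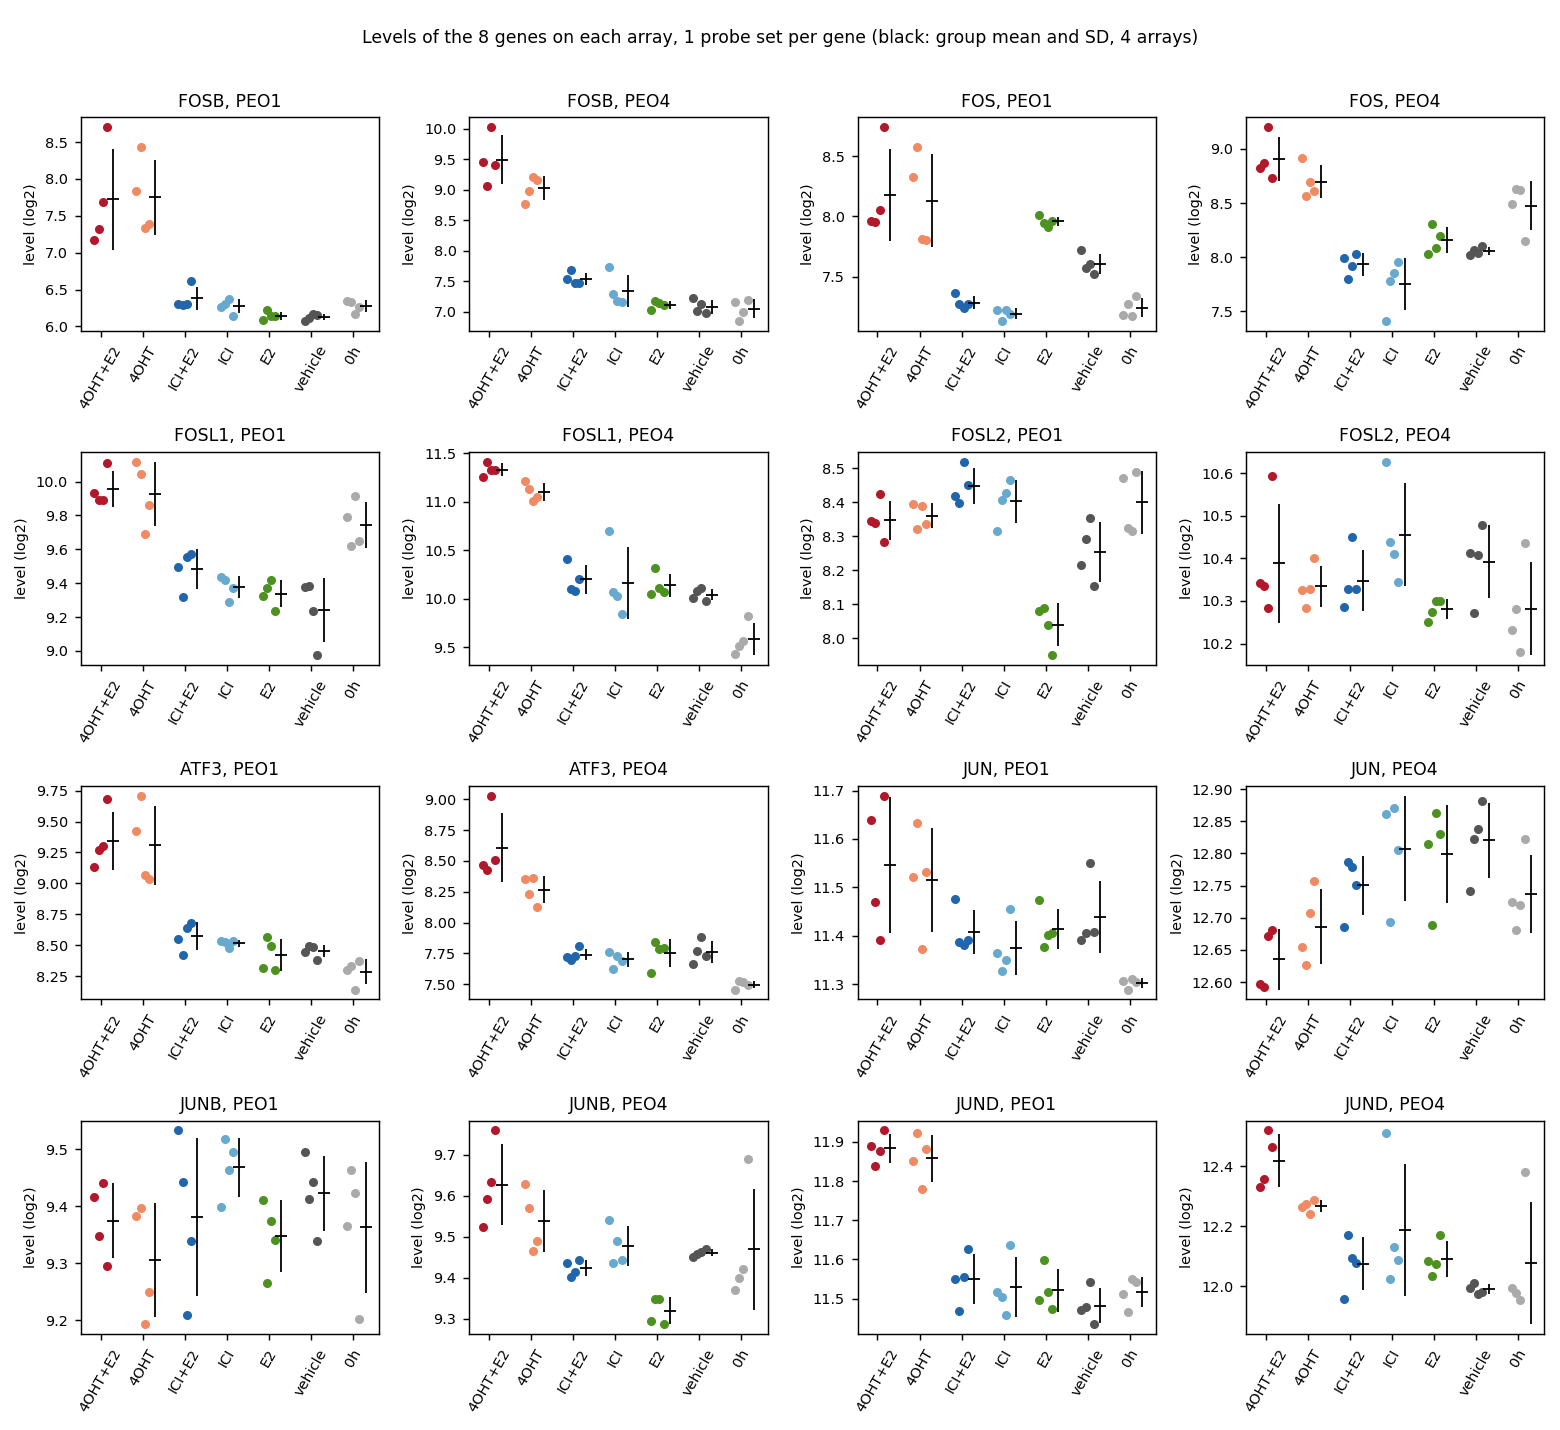
Levels (log2) of the 8 genes on each of the 56 arrays, 1 probe set per gene, with PEO1 and PEO4 in separate panels that each have their own vertical scale, and treatments on the horizontal axis. Points are arrays and black marks are group means with SD (4 arrays). FOSB and ATF3 stand apart on all 8 arrays with 4OHT in both lines, while JUN, JUNB and FOSL2 span less than 1 log2 unit in each panel.

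ATF3 followed the same pattern with smaller differences. In PEO1 its levels were 9.43, 9.71, 9.06 and 9.04 with 4OHT and 9.13, 9.27, 9.30 and 9.68 with 4OHT+E2, against 8.45, 8.49, 8.49 and 8.38 with vehicle and 8.32, 8.57, 8.50 and 8.30 with E2. In PEO4 they were 8.35, 8.23, 8.36 and 8.13 with 4OHT, against 7.67, 7.77, 7.88 and 7.73 with vehicle. The 8 arrays with 4OHT did not overlap the 20 without it in either line. ATF3 rose by 0.85 ± 0.11 (1.81-fold, adjusted p = 2.74e-05) over vehicle in PEO1 and by 0.50 ± 0.09 (1.42-fold, adjusted p = 0.001) in PEO4. Over E2 alone, 4OHT+E2 raised it by 0.93 ± 0.11 (adjusted p = 2.08e-06) in PEO1 and by 0.85 ± 0.09 (adjusted p = 1.91e-07) in PEO4. It was also higher with 4OHT than with ICI, by 0.79 ± 0.11 (adjusted p = 0.000112) for PEO1 cells and by 0.56 ± 0.09 (adjusted p = 0.000345) for PEO4 cells, while ICI differed from vehicle by 0.06 (-0.17 to 0.29) in PEO1 and by -0.06 (-0.24 to 0.12) in PEO4. In PEO4 ATF3 averaged 8.61 ± 0.28 with 4OHT+E2 and 8.27 ± 0.11 with 4OHT (SD, n = 4 each), groups that did not overlap, but the difference of 0.34 ± 0.09 did not pass (adjusted p = 0.271). The highest of those arrays, 4OHT+E2 replicate 3 at 9.03, had an ACTB 3′ minus 5′ value of 1.07.

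FOSL1, which encodes the FOS-related protein FRA-1 that is prominent in invasive carcinoma lines, rose in all 4 comparisons of 4OHT or 4OHT+E2 with a group lacking 4OHT, in both lines. In PEO1 it read 10.11, 10.05, 9.69 and 9.86 with 4OHT, against 9.38, 9.38, 9.23 and 8.97 with vehicle. In PEO4 it read 11.21, 11.13, 11.003 and 11.05 with 4OHT and 11.25, 11.41, 11.32 and 11.33 with 4OHT+E2, against 10.00, 10.08, 10.11 and 9.98 with vehicle and 10.05, 10.31, 10.11 and 10.07 with E2. The rise over vehicle was 0.69 ± 0.09 (1.61-fold, adjusted p = 2.74e-05) in PEO1 and 1.05 ± 0.12 (2.08-fold, adjusted p = 2.21e-06) in PEO4. The rise of 4OHT+E2 over E2 was 0.62 ± 0.09 (adjusted p = 3.51e-05) in PEO1 and 1.19 ± 0.12 (2.29-fold, adjusted p = 8.11e-08) in PEO4. In PEO4 all 8 arrays with 4OHT lay above all 20 without it (lowest 11.003 against highest 10.69). In PEO1 the 2 sets overlapped, with a lowest of 9.69 with 4OHT and a highest of 9.91 at 0 h.

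The 10.69 in PEO4 was ICI replicate 1, the array with the highest ACTB 3′ minus 5′ value, where the 3 other ICI arrays read 10.06, 10.03 and 9.84. FOSL1 remained higher with 4OHT than with ICI in both lines, by 0.55 ± 0.09 (adjusted p = 0.000631) in PEO1 and by 0.94 ± 0.12 (adjusted p = 1.72e-05) in PEO4. ICI differed from vehicle by 0.14 (-0.05 to 0.32) in PEO1 and 0.11 (-0.13 to 0.36) in PEO4.

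FOS, the prototype immediate early gene, was ordered by treatment in PEO1 also among the groups without 4OHT. Its PEO1 means were 8.18 ± 0.38 with 4OHT+E2, 8.13 ± 0.39 with 4OHT, 7.29 ± 0.05 with ICI+E2, 7.19 ± 0.04 with ICI, 7.96 ± 0.04 with E2, 7.60 ± 0.09 with vehicle and 7.24 ± 0.08 at 0 h (SD, n = 4 each). Ranked by mean, E2 did not overlap vehicle below it, nor vehicle the ICI+E2 group below that, whereas 4OHT+E2, 4OHT and E2 overlapped each other in turn. The E2 arrays read 8.01, 7.95, 7.91 and 7.96 and the ICI arrays 7.23, 7.13, 7.23 and 7.19, against 7.72, 7.57, 7.60 and 7.52 with vehicle. In the fit over all PEO1 arrays neither difference passed: E2 minus vehicle was 0.35 ± 0.14 (adjusted p = 0.31) and ICI minus vehicle was -0.41 ± 0.14 (adjusted p = 0.845). Both passed when only the 8 arrays compared were fitted (adjusted p = 0.0114 for E2 and 0.0376 for ICI). The direct comparison of ICI+E2 with E2 passed in the main fit, with FOS 0.67 ± 0.14 lower under ICI+E2 (adjusted p = 0.00458).

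4OHT raised FOS by 0.52 ± 0.14 over vehicle in PEO1 (1.44-fold, adjusted p = 0.0285), where the 4OHT arrays read 8.32, 8.58, 7.81 and 7.80. That call was lost, at adjusted p from 0.0649 to 0.136, when vehicle replicate B, C or D or 4OHT replicate A or B was left out, and at 0.133 with only the 8 arrays fitted. Over E2, 4OHT+E2 differed by 0.22 (-0.07 to 0.50, adjusted p = 0.339) in PEO1, with arrays at 7.96, 7.95, 8.05 and 8.74. Against ICI, FOS was higher with 4OHT by 0.94 ± 0.14 (adjusted p = 0.000163) in PEO1. In PEO4 the 4OHT arrays read 8.91, 8.57, 8.69 and 8.62 and the 4OHT+E2 arrays 8.82, 8.87, 9.20 and 8.73, against 8.02, 8.06, 8.04 and 8.10 with vehicle and 8.03, 8.31, 8.09 and 8.20 with E2. These groups did not overlap, and FOS rose by 0.64 ± 0.11 (1.56-fold, adjusted p = 0.000975) with 4OHT over vehicle and by 0.75 ± 0.11 (adjusted p = 6.24e-05) with 4OHT+E2 over E2. It was 0.95 ± 0.11 higher with 4OHT than with ICI in PEO4 (adjusted p = 8.84e-06). ICI minus vehicle was -0.30 (-0.54 to -0.07, adjusted p = 0.165) in PEO4. The PEO4 ICI arrays read 7.41, 7.78, 7.86 and 7.96, and the lowest was replicate 1, the array with the highest ACTB 3′ minus 5′ value.

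FOSL2, which encodes FRA-2, was not called with 4OHT over vehicle on any of its 3 probe sets in either line, with differences from -0.14 to 0.11. FOSL2 means in PEO1 were higher with 4OHT than with vehicle on all 3, with an unadjusted limma p under 0.05 on the standing one (8.36 against 8.25). In PEO1 its standing probe set was lowest with E2, at 8.08, 8.09, 8.04 and 7.95, against 8.22, 8.29, 8.35 and 8.15 with vehicle, a fall of 0.21 ± 0.05 (adjusted p = 0.024). That call was lost without vehicle replicate B or C or E2 replicate C or D (adjusted p from 0.0628 to 0.11) and with only the 8 arrays fitted (0.142). Relative to E2, FOSL2 in PEO1 was higher by 0.41 ± 0.05 with ICI+E2 (adjusted p = 6.35e-06) and by 0.31 ± 0.05 with 4OHT+E2 (adjusted p = 0.000181). A second probe set rose by 0.27 ± 0.06 with ICI+E2 (adjusted p = 0.00619, or 0.152 with only those 8 arrays), and the third did not pass. In PEO4 no FOSL2 probe set passed in any treatment comparison, and the group means of the standing one lay between 10.28 and 10.46.

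JUND, the JUN family member that many resting cells express constitutively, showed a small and tight rise. In PEO1 its standing probe set read 11.85, 11.92, 11.78 and 11.88 with 4OHT and 11.89, 11.84, 11.88 and 11.93 with 4OHT+E2, against 11.47, 11.48, 11.54 and 11.43 with vehicle and 11.50, 11.60, 11.52 and 11.47 with E2. All 8 arrays with 4OHT lay above all 20 without it. The rise was 0.38 ± 0.04 (adjusted p = 9.16e-06) over vehicle, 0.36 ± 0.04 (adjusted p = 2.4e-06) for 4OHT+E2 over E2, and 0.33 ± 0.04 (adjusted p = 5.51e-05) over ICI. A second JUND probe set, 214326_x_at, rose by 0.35 ± 0.08 over vehicle (adjusted p = 0.00811, or 0.0678 with only the 8 arrays). The third, 203751_x_at, was 0.33 ± 0.09 higher with 4OHT than with ICI (adjusted p = 0.0382), but in 6 of 8 fits without 1 array it did not pass (up to 0.161), nor with only those 8 arrays (0.189). Both of these have the suffix x, as has the standing JUN probe set, 201464_x_at. The array's maker gives it to sets whose probes can also match other transcripts.

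In PEO4 the JUND arrays read 12.26, 12.28, 12.24 and 12.29 with 4OHT, against 11.99, 12.01, 11.97 and 11.98 with vehicle, and the difference of 0.28 ± 0.09 did not pass (adjusted p = 0.0677) although the groups did not overlap. 4OHT+E2 exceeded E2 by 0.33 ± 0.09 (adjusted p = 0.0227) in PEO4, a call lost without E2 replicate 1, 2 or 3 or 4OHT+E2 replicate 3 or 4 (adjusted p from 0.0579 to 0.0855). It exceeded ICI+E2 by 0.34 ± 0.09 (adjusted p = 0.0212), lost without ICI+E2 replicate 1 or 3 or 4OHT+E2 replicate 3 or 4 (from 0.0539 to 0.0905). Against ICI in PEO4, the standing probe set differed by 0.08 (adjusted p = 0.702), while 203751_x_at and 214326_x_at were higher with 4OHT by 0.55 ± 0.12 (adjusted p = 0.0151) and 0.62 ± 0.15 (adjusted p = 0.0305). The probe sets disagreed most on ICI replicate 1, the array with the highest ACTB 3′ minus 5′ value, which read 12.51 on the standing set against 12.02 to 12.13 on the other ICI arrays, and 6.26 on 214326_x_at against 7.11 to 7.31. Without that array the x probe sets were 0.40 and 0.39 higher with 4OHT and neither passed (adjusted p = 0.0746 and 0.11). 214326_x_at also lost its call without any 1 of the 4OHT arrays, and 203751_x_at without 4OHT replicate 1.

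JUN and JUNB, both immediate early genes in many cell types, moved little. On the standing JUN probe set, 201464_x_at, the PEO1 arrays read 11.52, 11.63, 11.37 and 11.53 with 4OHT, against 11.39, 11.40, 11.55 and 11.41 with vehicle, and the difference of 0.08 did not pass. In PEO4 they read 12.65, 12.63, 12.71 and 12.76 with 4OHT, against 12.74, 12.82, 12.84 and 12.88 with vehicle, a difference of -0.13 (adjusted p = 0.139). The 4OHT minus vehicle differences of the 4 JUN probe sets ran from 0.07 to 0.17 in PEO1 and from -0.25 to -0.09 in PEO4. One of these 8 values passed, on 201466_s_at in PEO4, which read 10.23, 10.32, 10.52 and 10.30 with 4OHT, against 10.59, 10.50, 10.62 and 10.68 with vehicle. It fell by 0.25 ± 0.07 (adjusted p = 0.0447), a call that held in only 1 of the 8 fits that each left out 1 array (adjusted p from 0.0503 to 0.136 in the 7 others). The same probe set fell by 0.31 ± 0.07 with 4OHT+E2 against E2 in PEO4 (adjusted p = 0.00801), and 213281_at rose by 0.31 ± 0.08 with 4OHT+E2 against E2 in PEO1 (adjusted p = 0.0115, or 0.0537 without 4OHT+E2 replicate D).

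JUNB differed by -0.12 with 4OHT over vehicle in PEO1 (95% interval -0.25 to 0.01) and by 0.08 in PEO4 (-0.04 to 0.20). In PEO4 its 4OHT+E2 arrays read 9.53, 9.59, 9.63 and 9.76, against 9.29, 9.35, 9.35 and 9.29 with E2, a rise of 0.31 ± 0.06 (adjusted p = 0.000944). The ICI+E2 arrays read 9.44, 9.40, 9.41 and 9.44, from which 4OHT+E2 differed by 0.20 ± 0.06 (adjusted p = 0.0486). That call held in 1 of the 8 fits that left out 1 array, with adjusted p from 0.068 to 0.222 in the others, and the replicate block gave 0.0571.

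**Figure D2:**
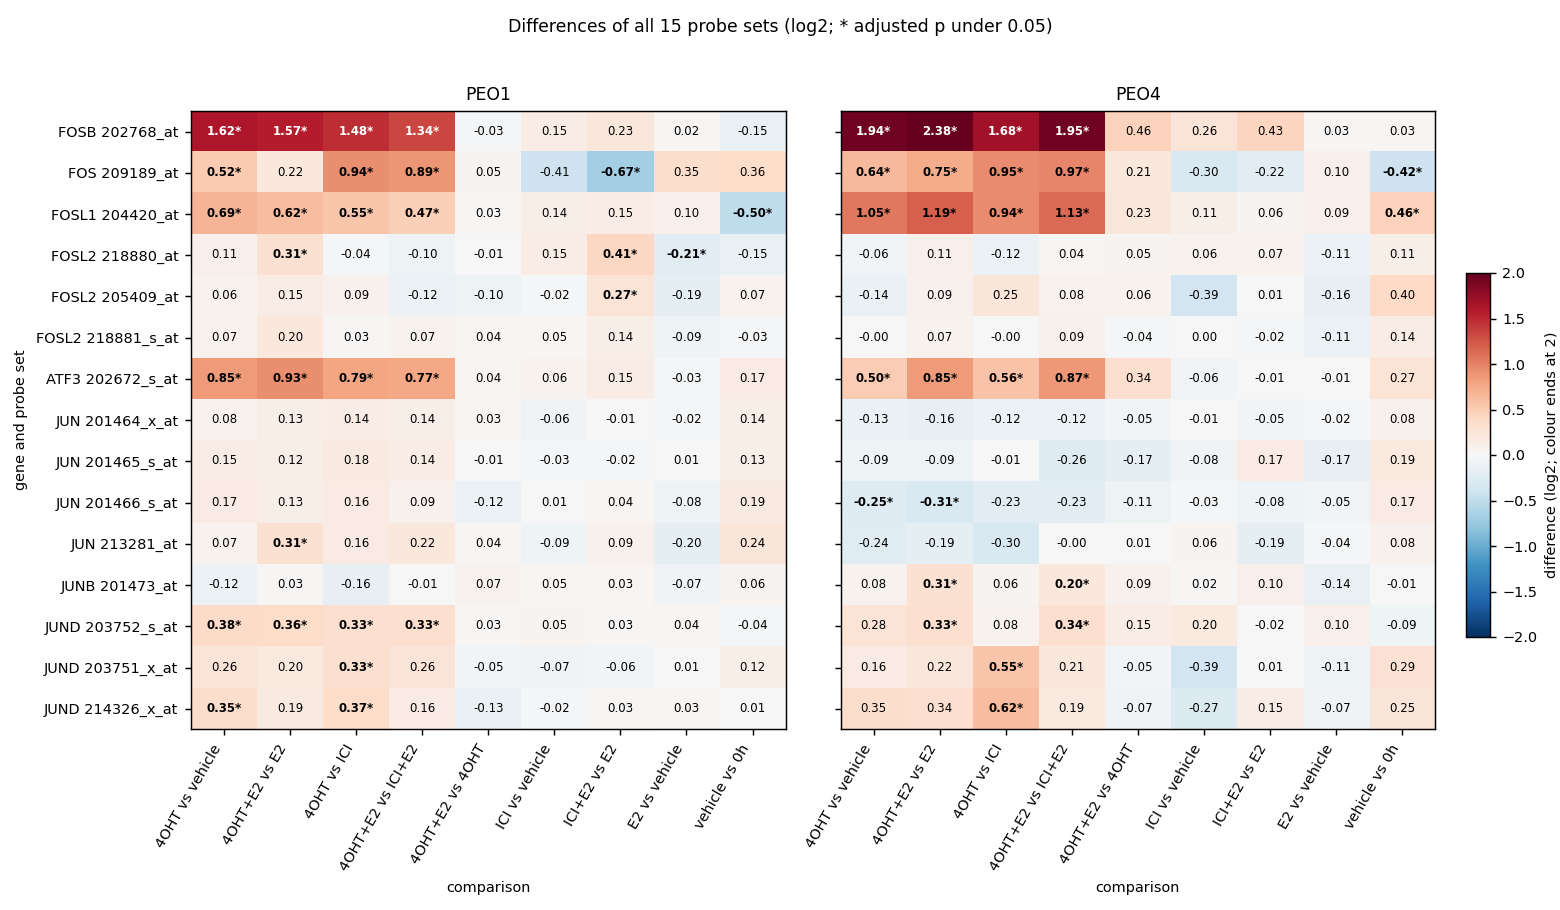
Differences (log2) of all 15 probe sets (rows) in the 9 comparisons within each line (columns), with an asterisk where the adjusted p was under 0.05. The 4 columns with 4OHT over a group without it hold 48 of the 55 calls. Over all probe sets, the comparisons in these columns called from 530 to 2220 in PEO1 and from 347 to 944 in PEO4. The other comparisons called from 0 to 1257 in PEO1 and from 15 to 1086 in PEO4. FOSB reaches 2.38 in PEO4, and the column of 4OHT+E2 against 4OHT holds none.

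Counted over the 15 probe sets, 6 were called higher and 0 lower with 4OHT against vehicle in PEO1 (5 of 8 genes), where 1.4% of all probe sets were called higher and 2.81% lower. In PEO4 4 were called higher and 1 lower (4 genes higher), with 2.08% higher and 1.85% lower among all. For 4OHT+E2 against E2, 6 rose and 0 fell in PEO1, with 3.16% higher and 6.83% lower among all, and 6 rose and 1 fell in PEO4, with 2.72% higher and 1.53% lower among all. The median difference of the 15 probe sets with 4OHT over vehicle was 0.17 in PEO1 and 0.08 in PEO4, and the median of all probe sets was -0.03 and 0.00 in the same lines. With 4OHT against ICI, 7 rose and 0 fell in PEO1 (1.24% higher and 1.14% lower among all), and 6 rose and 0 fell in PEO4 (0.918% higher and 0.644% lower). With estradiol in both arms, 4OHT+E2 against ICI+E2 gave 5 higher and 0 lower in PEO1 (1.08% higher and 1.63% lower among all) and 6 higher and 0 lower in PEO4 (2.16% higher and 1.05% lower). These comparisons share arrays, so their counts are not independent.

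The remaining comparisons called few. ICI against vehicle called 0 of 15 by limma in both lines, with 2 at an unadjusted p under 0.05 in PEO1 and 4 in PEO4, and called 0.0585% of all probe sets in PEO1 and 0.0765% in PEO4. Among all 22215 probe sets, 1036 had an unadjusted p under 0.05 in PEO1 and 4123 in PEO4. The 17 calls over all probe sets in PEO4 became 2 to 38 in 7 of the 8 fits without 1 array, 1557 without ICI replicate 4, which also called JUND 203751_x_at, and 3117 with array weights. ICI+E2 against E2 called 2 FOSL2 probe sets higher and FOS lower in PEO1 (0.689% higher and 1.19% lower among all) and 0 in PEO4, where 1 had an unadjusted p under 0.05 and 1.44% of all were called. E2 against vehicle called 0 higher and FOSL2 lower in PEO1 (1.14% higher and 0.36% lower among all) and 0 in PEO4, where 2 had an unadjusted p under 0.05 and 1.44% of all were called. Adding estradiol to 4OHT called 0 of 15 in both lines, with 0 at an unadjusted p under 0.05 in PEO1 and 2 in PEO4 (FOSB and ATF3), and called 0% and 0.0675% of all probe sets.

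**Figure D3:**
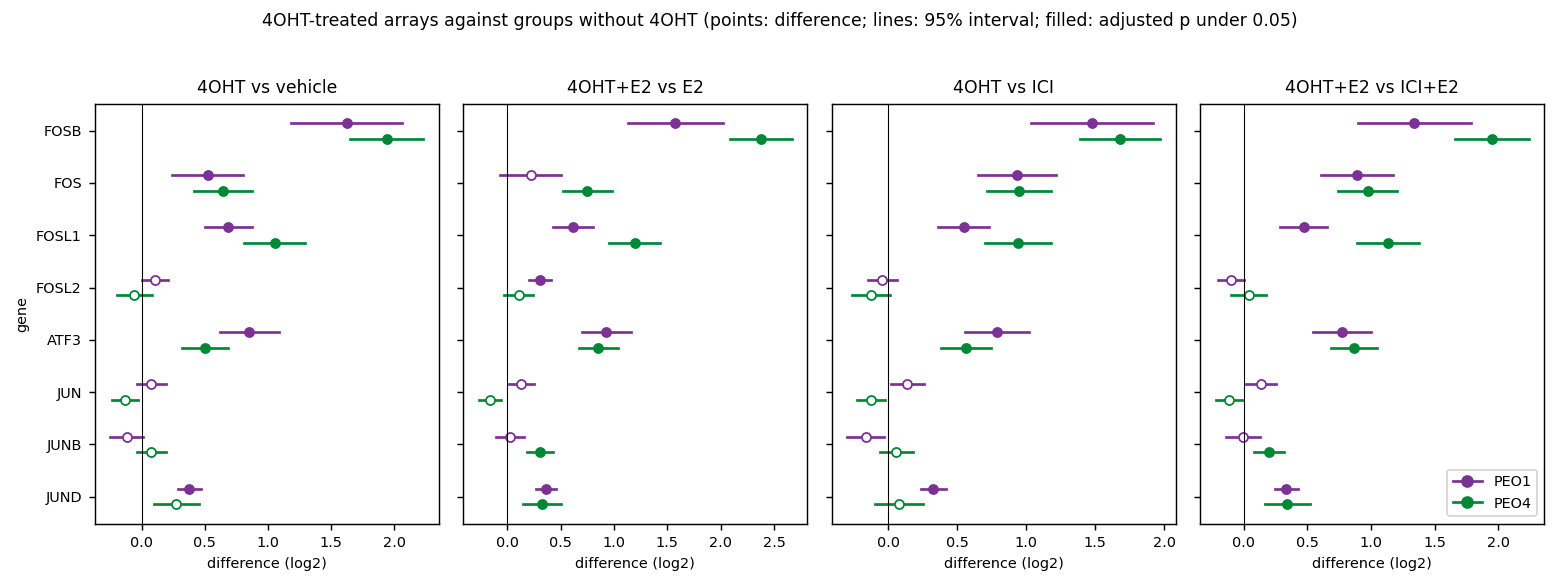
Differences (log2) of the 8 genes, 1 probe set each, for 4OHT-treated arrays against vehicle, E2, ICI and ICI+E2 arrays. Points are fitted differences, lines are 95% intervals, and filled points had an adjusted p under 0.05. FOSB, ATF3 and FOSL1 are filled in all 4 panels in both lines, and FOS in all but 4OHT+E2 against E2 in PEO1.

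Whether estradiol changed the 4OHT effect was tested as a difference of differences. By limma, 0 of 15 probe sets passed in PEO1 (2 at an unadjusted p under 0.05, and 0.455% called among all) and 0 in PEO4 (3 at an unadjusted p under 0.05, and 0.387% among all). In PEO4 the 4OHT effect with estradiol minus that without was 0.43 for FOSB (95% interval 0.02 to 0.84, adjusted p = 0.747), 0.35 for ATF3 (0.09 to 0.61, adjusted p = 0.489) and 0.23 for JUNB (0.06 to 0.40, adjusted p = 0.47). In PEO1 it was -0.05 for FOSB (-0.68 to 0.58), 0.07 for ATF3 (-0.25 to 0.40) and -0.31 for FOS (-0.71 to 0.09). GREB1 was different, with 4OHT effects 1.81 lower in the presence of estradiol in PEO1 and 1.73 lower in PEO4, both past the threshold (adjusted p = 1.91e-09 and 2.56e-06).

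Vehicle at 3 h was compared with 0 h, a contrast in which time in culture and the addition of ethanol cannot be told apart. In PEO1 FOSL1 read 9.38, 9.38, 9.23 and 8.97 with vehicle, against 9.79, 9.62, 9.91 and 9.65 at 0 h, a fall of 0.50 ± 0.09 (adjusted p = 0.000969). It was the only one of the 15 called there (0 higher and 1 lower, with 4.38% higher and 1.28% lower among all probe sets). In PEO4 FOSL1 read 10.00, 10.08, 10.11 and 9.98 with vehicle, against 9.43, 9.52, 9.56 and 9.82 at 0 h, a rise of 0.46 ± 0.12 (adjusted p = 0.0184). FOS read 8.02, 8.06, 8.04 and 8.10 with vehicle, against 8.49, 8.63, 8.62 and 8.15 at 0 h in PEO4, a fall of 0.42 ± 0.11 (adjusted p = 0.0268). These were the 1 higher and 1 lower called in PEO4, against 3.01% higher and 1.88% lower among all.

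The lowest FOS and the highest FOSL1 value at 0 h in PEO4 both came from replicate 4, one of the arrays with a high ACTB 3′ minus 5′ value. The FOSL1 call was lost without 0 h replicate 1 or 2 or vehicle replicate 2 or 3 (adjusted p from 0.0511 to 0.0768). The FOS call was lost without 0 h or vehicle replicate 1, 2 or 3 (adjusted p from 0.0635 to 0.092).

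**Figure D4:**
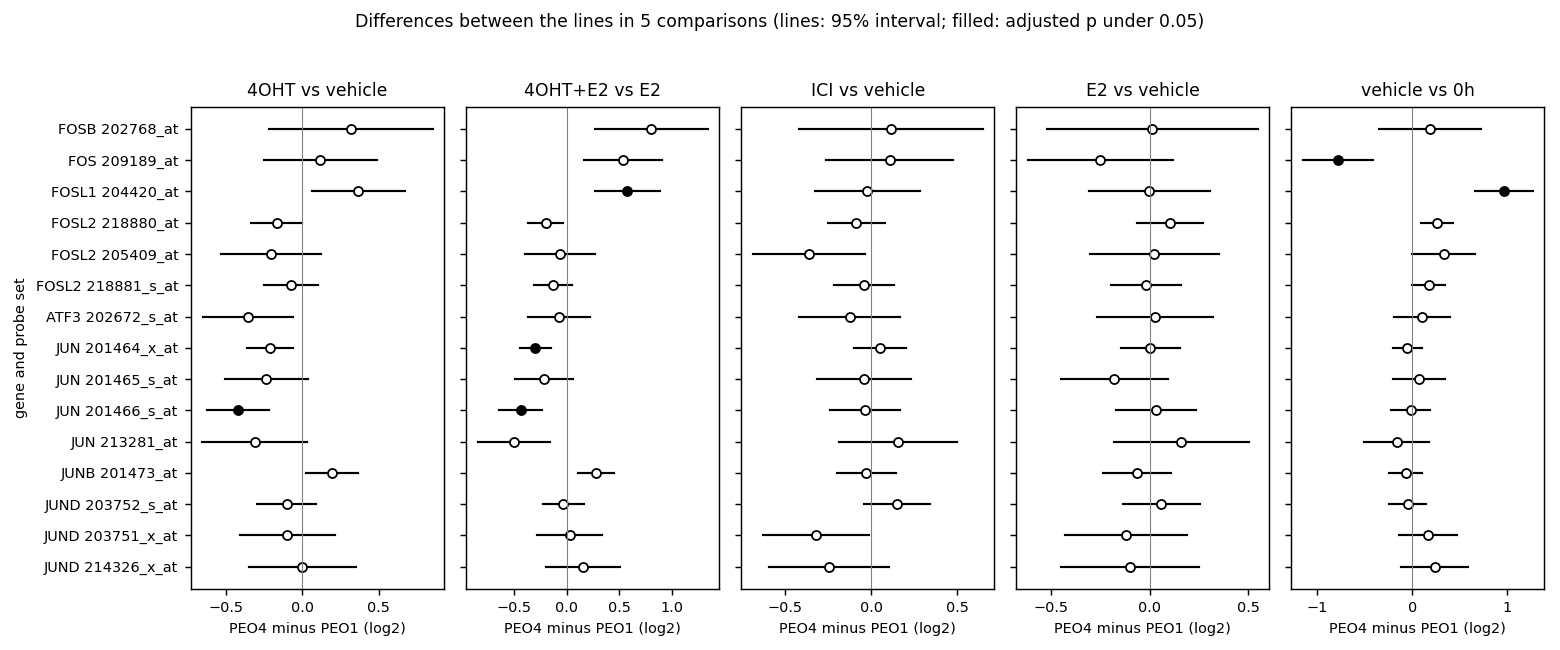
Difference between the lines (PEO4 minus PEO1, log2) in the response of all 15 probe sets in 5 comparisons, with 95% intervals. Filled points had an adjusted p under 0.05. FOS (-0.78) and FOSL1 (0.96) are filled in the vehicle against 0 h panel, and no point is filled for ICI or E2.

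The lines were compared by testing the difference of their responses, PEO4 minus PEO1. FOSL1 responded to 4OHT+E2 over E2 more in PEO4, by 1.19 against 0.62 in PEO1, a difference of 0.58 ± 0.15 (adjusted p = 0.0353). For 4OHT+E2 over E2 the JUN probe set 201464_x_at differed by -0.16 in PEO4 and 0.13 in PEO1, neither past the threshold by itself, and the difference of -0.30 ± 0.07 passed (adjusted p = 0.0242). JUN 201466_s_at fell by 0.31 in PEO4, against a difference of 0.13 in PEO1 that did not pass, and the difference of -0.44 ± 0.10 between them passed (adjusted p = 0.0113). These 3 were the calls among 15, with 1.4% called among all probe sets. For 4OHT over vehicle 201466_s_at alone passed, at -0.42 ± 0.10 (adjusted p = 0.0314, with 0.783% called among all). FOSB differed by 0.32 (-0.22 to 0.85) and ATF3 by -0.35 (-0.65 to -0.06, adjusted p = 0.267) in that comparison. For vehicle over 0 h, FOSL1 (0.96 ± 0.15, adjusted p = 4.06e-05) and FOS (-0.78 ± 0.18, adjusted p = 0.0114) passed, with 1.46% called among all. Limma called 0 of 15 for E2 (0 at an unadjusted p under 0.05, and 0.32% among all) and 0 for ICI (2 at an unadjusted p under 0.05, and 0.063% among all).

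Of these differences, both in vehicle over 0 h held in all 16 fits that left out 1 array, as did 201466_s_at in 4OHT+E2 over E2. The others held in 6 of 16 (201466_s_at with 4OHT over vehicle, otherwise adjusted p up to 0.0758), 4 of 16 (FOSL1, otherwise up to 0.0937) and 9 of 16 (201464_x_at, otherwise up to 0.0871). Fitted on only the groups compared, each of the 3 JUN differences lost its call (adjusted p = 0.0642, 0.186 and 0.0569).

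Arrays of 1 group also varied together in PEO1. After each group's mean was taken off, FOS and FOSB had a Pearson r of 0.90, FOSB and ATF3 0.86, and FOS and ATF3 0.84 over the 28 PEO1 arrays. In PEO4 the same pairs had -0.21, 0.53 and, for FOS and ATF3, 0.48. The lowest FOS and the highest FOSB value of the PEO4 ICI group (7.41 and 7.73) both came from replicate 1. Those of the 0 h group (8.15 and 7.195) both came from replicate 4. The ACTB 3′ minus 5′ values of these arrays were 3.41 and 2.28, and their part in the PEO4 r values was not tested. Within PEO1, 4OHT replicate B and 4OHT+E2 replicate D had the highest values of their groups for FOSB (8.44 and 8.70), FOS (8.58 and 8.74) and ATF3 (9.71 and 9.68). Genes of 1 array share its RNA, labelling and scan, so these are descriptions and carry no test.

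**Figure D5:**
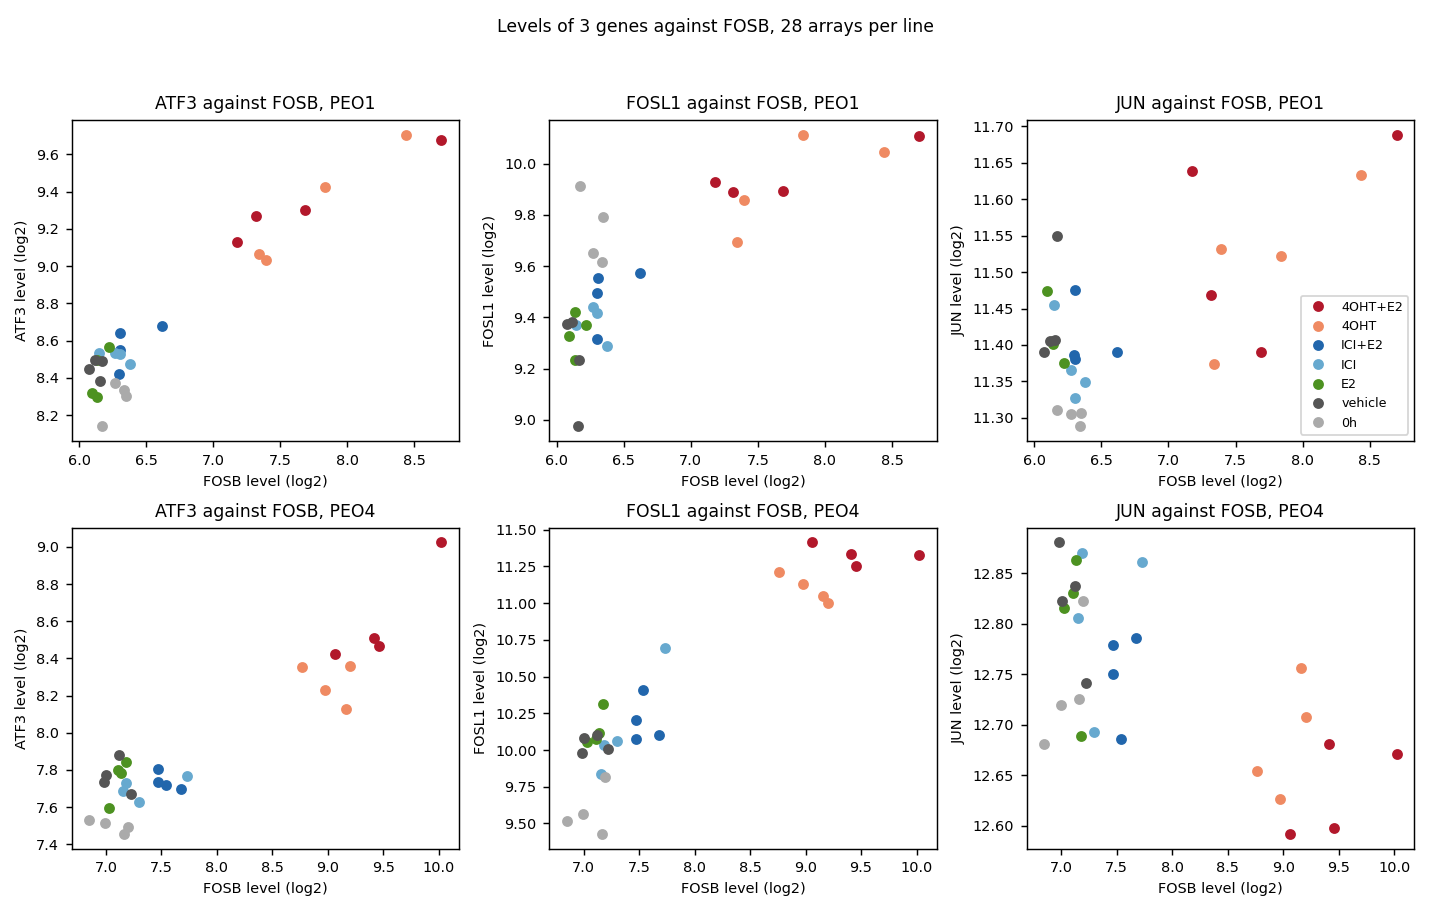
Levels (log2) of ATF3, FOSL1 and JUN against FOSB on the 28 arrays of each line, coloured by treatment. The 8 arrays with 4OHT form a cloud of their own to the right in every panel. JUN levels in that cloud overlap those of the other arrays in both lines.

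Across all 28 arrays of a line, treatment differences included, the 3 genes outside the family whose profile was most like that of FOSB were HSPA6, an inducible heat shock protein (lower r of the lines 0.94), IER3, an immediate early survival gene (0.92), and NR4A3, an orphan nuclear receptor (0.90). For ATF3 they were GEM, a small GTP-binding protein (0.94), NR4A3 (0.93) and HSPA6 (0.93). FOSL1 was most like DUSP4, a MAP kinase phosphatase (0.91), TRIB1 (0.90) and IER3 (0.89), and FOS like EGR3, an early growth response factor (0.81), HSPA6 (0.78) and DNMBP (0.74). JUND was most like YPEL5 (0.86), STK10 (0.85) and CBLB (0.84). The best matches of FOSL2 (MMD, 0.69), JUN (NAB1, 0.70) and JUNB (PACSIN2, 0.55) were weaker. Arrays with and without 4OHT did not overlap for FOSB and ATF3 in either line, so their r values largely restate the difference with 4OHT. For FOS, FOSL2, JUN and JUNB the arrays with and without 4OHT overlapped in both lines, for FOSL1 in PEO1 and for JUND in PEO4.

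FOSB and JUN had an r of 0.67 over the PEO1 arrays and -0.63 over the PEO4 arrays, whereas FOSB and ATF3 had 0.96 and 0.93 in the same lines.

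Partners, regulators and targets of AP-1 were counted from lists, 1 probe set per gene. Over all probe sets, 4OHT against vehicle called 1.4% higher and 2.81% lower in PEO1, and 2.08% higher and 1.85% lower in PEO4. For 4OHT+E2 against E2 these shares were 3.16% higher and 6.83% lower in PEO1, and 2.72% higher and 1.53% lower in PEO4. Fits of 1 probe set per gene called, in either direction, 808 of 11963 genes in PEO1 and 661 in PEO4 for 4OHT against vehicle. For 4OHT+E2 against E2 such fits called 1525 in PEO1 and 686 in PEO4. Of 16 measured bZIP partners, 3 rose with 4OHT over vehicle in PEO1, the small MAF protein MAFF (0.60), CREB5 (0.73) and the cyclic AMP response modulator CREM (0.43), and 0 fell. In PEO4 MAFF (0.71) and CREB5 (0.64) rose and MAF, a large MAF protein, fell by 0.62. The list medians were 0.01 in PEO1 and 0.06 in PEO4. Of 17 measured kinases and serum response regulators that act upstream of AP-1, limma called 0 in either line for 4OHT over vehicle, with 4 at an unadjusted p under 0.05 in PEO1 and 5 in PEO4. With 4OHT+E2 over E2, 1 of them rose and 3 fell in PEO1, and limma called 0 in PEO4 (4 at an unadjusted p under 0.05). For 4OHT over vehicle, 9 of 26 measured AP-1 targets rose and 1 fell in PEO1, and 9 rose and 0 fell in PEO4. Their list medians were 0.10 and 0.13. With 4OHT+E2 over E2, 10 rose and 2 fell in PEO1, and 11 rose and 0 fell in PEO4. With ICI over vehicle limma called 0 of the 26 in either line, with 3 at an unadjusted p under 0.05 in PEO1 and 4 in PEO4. Among the targets that rose with 4OHT over vehicle were the epidermal growth factor receptor ligands EREG (1.14 in PEO1 and 1.04 in PEO4) and HBEGF (0.71 in both). The urokinase receptor PLAUR (0.31 and 0.42) and the chemokine CXCL8 (0.56 and 0.64) also rose in that comparison, and the protease MMP3 rose by 0.46 in PEO4.

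Of 23 other immediate early genes measured, 11 rose and 1 fell with 4OHT over vehicle in PEO1, and 11 rose and 0 fell in PEO4, with list medians of 0.19 and 0.28. Over all probe sets the shares called were 1.4% higher and 2.81% lower in PEO1, and 2.08% higher and 1.85% lower in PEO4. Fits of 1 probe set per gene called 808 of 11963 genes in PEO1 and 661 in PEO4, in either direction. Examples from the list were GEM (1.07 in PEO1 and 1.66 in PEO4), EGR3 (1.08 and 0.53), IER3 (0.75 and 1.21), NR4A3 (1.17 and 0.97), the zinc finger factor KLF4 (0.26 and 0.46) and the serum kinase SGK1 (0.31 and 0.65). With 4OHT+E2 over E2, 8 rose and 3 fell in PEO1 (3.16% higher and 6.83% lower over all probe sets), and 15 rose and 2 fell in PEO4 (2.72% higher and 1.53% lower). With ICI over vehicle, 0 rose and 1 fell in PEO1, and limma called 0 in PEO4 (4 at an unadjusted p under 0.05). For 4OHT over vehicle, 9 factors that bind or shorten AU-rich mRNAs such as that of FOS were also counted. Of these, the deadenylase PARN fell by 0.17 in PEO1 and 0 passed in PEO4 (2 at an unadjusted p under 0.05). Targets of ATF4, the factor that induces ATF3 in the integrated stress response, were counted in the same comparison. Of 12 measured, 3 rose (ASNS by 0.19, PPP1R15A by 0.38 and SLC7A11 by 0.27) and DDIT4 fell by 0.41 in PEO1. In PEO4 CEBPG rose by 0.27 and DDIT4 fell by 0.23.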

How the data were processed

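The deposited table holds log2 expression values of a 3′ microarray for 56 arrays, made by the authors with RMA, per the submitters' processing notes. RMA subtracts background, equalizes the distributions of arrays and combines the probes of a set, so a level depends on the arrays normalized with it. The version is not given in the sources used here, and array medians differ between the lines. The table was used as deposited. Of 22277 probe sets, 62 controls were left out. Probe sets were named from the array annotation, in which 19064 have 1 symbol, 1043 have several and 2108 have none.

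Each line was fitted over its 28 arrays with limma 3.58.1 in R 4.3.3 (21 residual degrees of freedom), without a filter on low levels. P-values were adjusted by Benjamini-Hochberg over all 22215 probe sets, and a call is an adjusted p under 0.05. Differences between lines came from 1 fit of 56 arrays (42 residual degrees of freedom). The procedure was tested on simulated data. RMA values carry no detection calls, and the number of arrays limits the precision. The labels do not say whether same-numbered arrays of a line belong together, so the main fits held no block. Deviations of same-numbered arrays had a mean r of 0.01 in PEO1 (from -0.38 to 0.32) and 0.06 in PEO4 (from -0.57 to 0.53). For arrays of other numbers the mean r was -0.005 in PEO1 and -0.02 in PEO4. The closest array of another group carried the same number for 7 of 28 arrays in PEO1 and 12 of 28 in PEO4.

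The genes and lists were chosen with earlier results of these data known. All 8 genes are named. From each list, up to 4 genes with the smallest adjusted p for 4OHT over vehicle in each line were named, and each gene was matched to the 3 genes with the highest lower r of the 2 lines. Alternatives were the replicate block, array weights, quantile normalization, trend and robust variance, a filter on dim probe sets, 1 probe set per gene, only the groups compared, 2 PEO4 arrays left out, and each array left out in turn. Figures were drawn with matplotlib 3.10.9.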

Additional observations from a re-analysis of the deposited data

Results flagged for a closer look

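In 112 groups of 4 values (8 genes, 7 groups, 2 lines), 8 values stood apart from the rest of their group by Dixon's criterion. Each is the value of 1 gene on 1 array, and chance meets the criterion in about 1 group in 20. FOS was at 8.74 on PEO1 4OHT+E2 replicate D, where the others were at 7.95 to 8.05. FOSB was at 6.62 on PEO1 ICI+E2 replicate D, where the others were at 6.30. JUN was at 11.55 on PEO1 vehicle replicate C (others 11.39 to 11.41) and at 11.48 on PEO1 ICI+E2 replicate A (others 11.38 to 11.39). JUNB was at 9.69 and JUND at 12.38 on PEO4 0 h replicate 4, above 9.37 to 9.42 and 11.95 to 11.99 on the others, and that array had an ACTB 3′ minus 5′ value of 2.28. ATF3 was low on PEO1 ICI replicate C, at 8.47 against 8.53, and high on PEO4 4OHT+E2 replicate 3, at 9.03 against 8.42 to 8.51.

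Of 75 differences between the responses of the lines (15 probe sets, 5 comparisons), 6 passed the test of the difference itself, PEO4 minus PEO1. They were -0.42 for JUN 201466_s_at with 4OHT over vehicle, then 0.58 for FOSL1, -0.30 for JUN 201464_x_at and -0.44 for JUN 201466_s_at with 4OHT+E2 over E2, and -0.78 for FOS and 0.96 for FOSL1 with vehicle over 0 h.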

How the results depend on the processing

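Of 61 called changes, 46 kept their call under every alternative setting run, 46 in every fit without 1 array, and 42 in both, and 0 reversed. The following counts of called probe sets moved by over 1.5 times. In PEO1 the vehicle against 0 h count was 2 (reported 1) with trend and robust variance, without dim probe sets, after quantile normalization, and with only the groups compared, and ICI against vehicle gave 1 with only the groups compared (reported 0). In PEO4, ICI+E2 against E2 gave 1 with only the groups compared (reported 0). Array weights, in PEO4, gave 8 for 4OHT against vehicle (reported 5), 1 for E2 against vehicle (reported 0), 1 for ICI+E2 against E2 (reported 0), 10 for 4OHT against ICI (reported 6) and 6 for vehicle against 0 h (reported 2). With array weights, calls over all probe sets in PEO4 rose from 874 to 2943 for 4OHT against vehicle and from 347 to 2931 against ICI. The rise was from 1086 to 2317 for vehicle against 0 h. For E2 against vehicle it was from 319 to 710, and for ICI+E2 against E2 from 319 to 881. For the line difference of 4OHT over vehicle (reported 1), 1 probe set per gene gave 0, array weights 2 and only the groups compared 0. Array weights there called 659 of all probe sets, against 174 in the main fit. For the line difference of 4OHT+E2 over E2 (reported 3), array weights gave 7, only the groups compared 1, and leaving out PEO4 0 h replicate 4 and ICI replicate 1 gave 5. In the same order, calls over all probe sets were 966, 156 and 536, against 310 in the main fit. The cause was not tested. Without 1 array, counts ranged from 0 to 1 for E2 against vehicle in PEO1, 1 to 2 for vehicle against 0 h in PEO1, 0 to 2 for vehicle against 0 h in PEO4, 0 to 1 for ICI against vehicle in PEO4, 0 to 1 for the line difference of 4OHT over vehicle and 1 to 4 for that of 4OHT+E2 over E2. The replicate block gave 8 calls for 4OHT+E2 against E2 in PEO4 (reported 7) and 5 for 4OHT+E2 against ICI+E2 in PEO4 (reported 6), and left the other counts of called probe sets as they were. Few arrays per group, and probe sets whose signal over background is unknown, limit what the smaller differences can show.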
